A study of Mus musculus with 116 samples.

Results

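FDB1 cells that carry the activated receptor mutant FI-Delta, 6 hours after IL-3 was washed out, were compared with parental FDB1 cells that had spent the same 6 hours in GM-CSF. The comparison was made on 4 of the 116 spotted 2-colour arrays of the series, chosen because their titles pair FI-Delta RNA with GM-CSF RNA at 6 hours, in both dye orders and for replicates 1 and 2. FDB1 is a mouse myeloid line that depends on an added growth factor. FI-Delta cells were grown in 500 U/mL IL-3 with 10% serum, were washed and were then left without factor. Parental cells came from the same IL-3 medium, were washed and were moved to 500 U/mL GM-CSF. The labels do not say whether the FI-Delta cells were a clone or a pool, or whether the replicates were separate cultures. A p-value therefore covers only how far the samples of the whole series spread, which may be technical.

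The receptor for GM-CSF pairs an alpha chain specific to that factor with a common beta chain that it shares with the IL-3 receptor, and the beta chain carries the signal into the cell through the kinase Jak2, the transcription factor Stat5 and the ERK pathway. FI-Delta is a mutant of the human common beta chain, altered in its extracellular part, which signals without IL-3. In FDB1 cells IL-3 maintains growth of immature cells, and GM-CSF leads to granulocytes and macrophages. The comparison therefore sets the early transcripts of cells driven by the mutant beside those of cells driven by the cytokine.

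Each value is a log2 ratio of FI-Delta over GM-CSF, so 1 means 2-fold higher in FI-Delta cells. The 2 arrays of a dye swap were averaged, and n = 2 replicates for every value. The direction of the deposited ratios, Cy5 over Cy3, is likely but not stated: limma writes that ratio, the labels give Cy5 as channel 1, and the titles name the RNA of channel 1 before that of channel 2. Were it Cy3 over Cy5, every sign in the text would turn, and the 131 features called higher in FI-Delta cells would be lower and the 50 called lower would be higher. The log base is likewise not stated and was taken as 2. A ratio gives no level, so the myeloid identity of the cells could not be checked against markers here. Replicate 1 was hybridised on print run 1 and replicate 2 on print run 2, and these cannot be told apart. Across all 20243 features (15097 gene symbols and probes without a single symbol) the 2 dye orders correlated at r = 0.39 in replicate 1 and r = 0.27 in replicate 2, within the range of 0.03 to 0.66 over the pairs of the series. The dye-swap means of the 2 replicates correlated at r = 0.23. These are descriptions across features, which are not independent replicates.

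In FI-Delta cells at 6 hours, 6 of 22 late neutrophil granule genes and 12 of 43 macrophage genes were called higher and none lower, and the survival genes Bcl2a1a and Bcl2a1d were higher as well. None of 13 primary granule genes was called, which says little in a list this short, as 0.894% of all features were called. The annexin partner S100a10, the fatty acid desaturase gene Scd1 and the thrombin receptor F2r were among the genes called lower, as were 9 of 64 endoplasmic reticulum genes on a list made after the values had been seen. In bulk RNA the share of cells of a type and the RNA per cell cannot be told apart. Of the 20243 features, 131 were called higher in FI-Delta cells (0.647%) and 50 lower (0.247%), at an adjusted p under 0.05 in limma with Benjamini-Hochberg adjustment over all features. Of these, 108 and 43 had a gene symbol. Differences of at least 2-fold were found for 30 features called higher and 2 called lower, and 116 of the features called higher and 45 of those called lower had the same sign on all 4 arrays. Without adjustment, 979 features were higher and 885 lower at p under 0.05. The 2 replicates had opposite signs for 5 called features, and for 37 a replicate mean was under 0.2 in size.

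**Figure D1:**
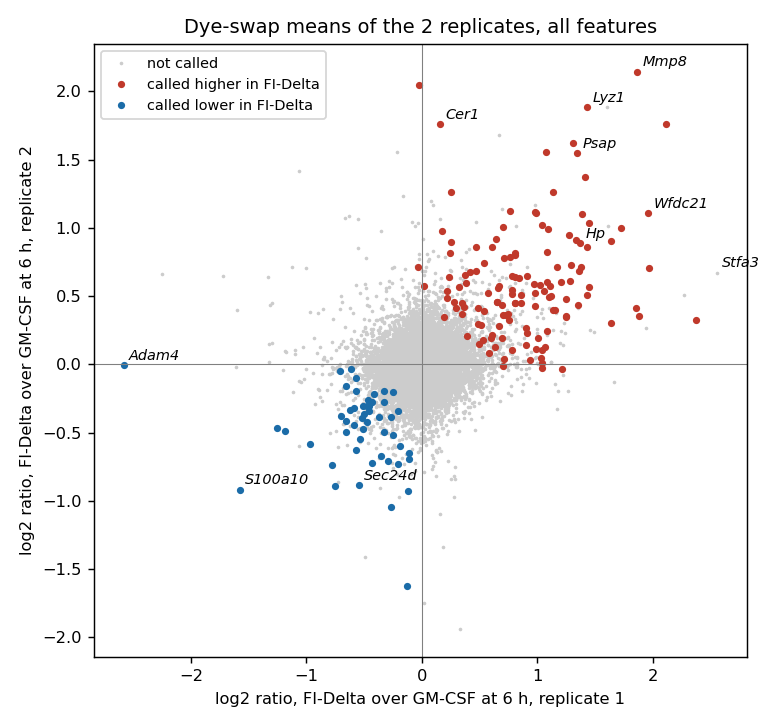
Log2 ratio of FI-Delta over GM-CSF at 6 hours in replicate 1 (x axis) and replicate 2 (y axis), each the mean of a dye swap, for all 20243 features; grey points were not called, red points were called higher in FI-Delta cells and blue points lower. Mmp8 lies at the upper right in both replicates, S100a10 at the lower left, and Adam4 and Cer1 lie near 0 in a single replicate.

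The largest called difference was that of a late neutrophil granule gene. Mmp8, which encodes the collagenase of neutrophil specific granules, had log2 ratios of 1.95 and 1.78 in replicate 1 and 2.45 and 1.83 in replicate 2, the array with FI-Delta in Cy5 before the array with FI-Delta in Cy3. It was higher on every array, by 2.01 ± 0.27 (SE), or 4.02-fold, with an adjusted p of 2.8e-05. Wfdc21, a secreted whey acidic protein domain protein, had 2.32 and 1.60 in replicate 1 and 1.30 and 0.92 in replicate 2. It was 2.89-fold higher (log2 1.53 ± 0.26, adjusted p = 0.00101) and lower in replicate 2 than in replicate 1. Lcn2, the iron-scavenging lipocalin of specific granules, had 1.73 and 1.73 in replicate 1 and 0.99 and 1.00 in replicate 2. Its mean was 1.36 ± 0.32 with an adjusted p of 0.0259, and the dye orders nearly coincided. Hp, haptoglobin, had 1.51, 1.23, 0.98 and 0.79 in the same order and was the gene with the smallest adjusted p of those named here, 3.53e-06, at 1.13 ± 0.13. The formyl peptide receptor gene Fpr2 was split by replicate, with 1.96 and 1.81 in replicate 1 against 0.37 and 0.34 in replicate 2, and passed at 1.12 ± 0.28 (adjusted p = 0.04). Stfa2, a stefin that inhibits cysteine proteases, was higher on all 4 arrays, by 1.02 ± 0.20 (adjusted p = 0.00361).

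Those 6 were the members called among 22 measured late granule genes, where 0.647% of all features were called higher. None was called lower, 20 lay above 0, and the median of the list was 1.05, against 0.00 over all features. A further group lay as far above 0 but did not pass. Ngp, neutrophilic granule protein, had a mean of 1.75 with an SE of 0.63 (adjusted p = 0.252). Stfa3, another stefin, had 2.56 in replicate 1 and 0.67 in replicate 2 (mean 1.61 ± 0.45, adjusted p = 0.0786). The calprotectin genes S100a8 and S100a9 had 0.48 ± 0.62 and 0.56 ± 0.68. Genes of the stefin family are near-identical copies, and their probes may share signal, so single members are uncertain. The median of the list was 0.83 in replicate 1 and 0.61 in replicate 2, and without replicate 1 only 2 of the 22 members passed, against 7 without replicate 2.

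The primary granule genes are made earlier in neutrophil formation. None of 13 measured members passed in either direction (1 at an unadjusted p under 0.05), and the median was -0.01. Over all features 0.894% were called, so a count of 0 in a list this short says little about its members. Elastase, Elane, had -0.01 ± 0.36 and myeloperoxidase, Mpo, 0.08 ± 0.20. The difference between the granule lists was not tested. Of the C/EBP transcription factors, Cebpd had 1.19 and 0.98 in replicate 1 but 0.13 and 0.36 in replicate 2, with a mean of 0.66 ± 0.16 (adjusted p = 0.0362). Cebpb was more even, at 0.71, 0.58, 0.34 and 0.57, and was higher by 0.55 ± 0.12 (adjusted p = 0.0123). These 2 were the called members of 29 progenitor regulators, whose median was -0.05, and Id2, which blocks E proteins, had 0.84 ± 0.22 without passing (adjusted p = 0.0523).

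**Figure D2:**
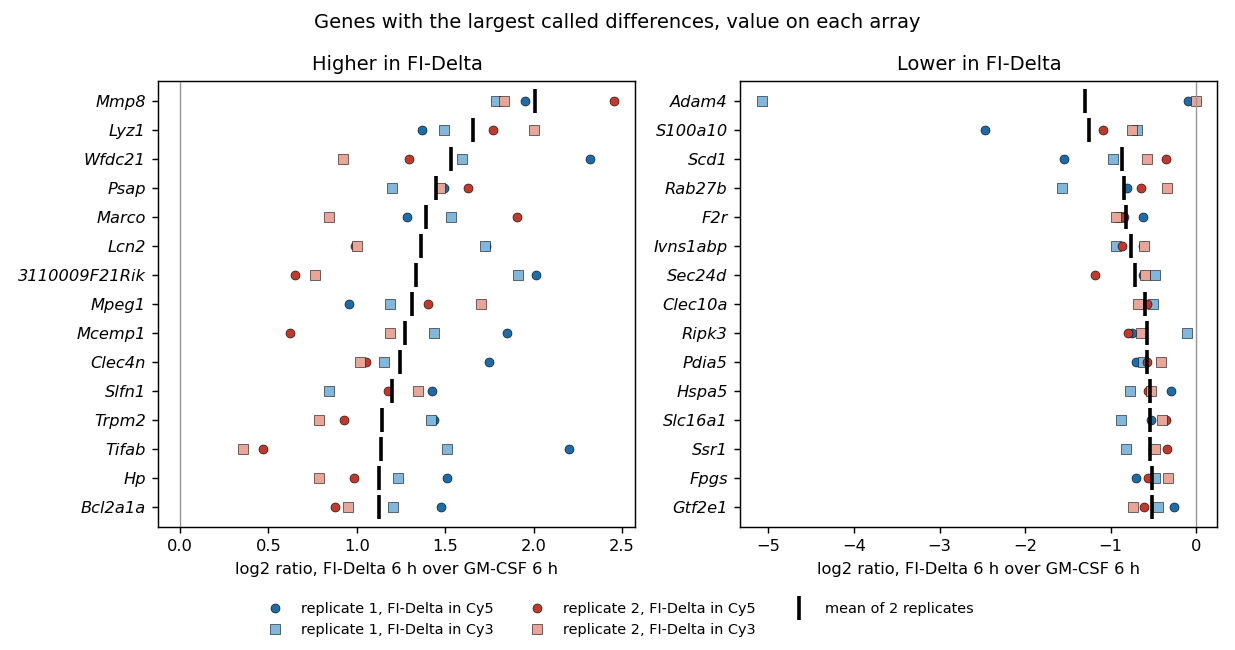
Log2 ratio of FI-Delta over GM-CSF at 6 hours on each of the 4 arrays (x axis) for the 15 genes with the largest called positive and the 15 with the largest called negative difference; blue marks are replicate 1, red marks replicate 2, circles arrays with FI-Delta in Cy5, squares arrays with FI-Delta in Cy3 and black bars the mean of the 2 replicates. Mmp8 and Lyz1 have all marks above 1.3, and Adam4 has a single mark at -5.08.

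Of 43 measured macrophage genes, 12 were called higher and none lower, against 0.647% and 0.247% of all features. Of the 43, 38 lay above 0, and the median was 0.42. In cells still in IL-3 the median of this list was already 0.33, and that of the late granule list was 0.05. The change in these medians was not tested. Lyz1, which encodes lysozyme, had 1.37 and 1.49 in replicate 1 and 1.77 and 2.00 in replicate 2. It was 3.16-fold higher (log2 1.66 ± 0.29, adjusted p = 0.00114), with all 4 arrays far above 0. Psap, prosaposin of the lysosome, had 1.49, 1.20, 1.63 and 1.47, a mean of 1.45 ± 0.33 (adjusted p = 0.0206), and its 2 probes gave 1.20 and 1.69. Marco, a scavenger receptor, had 1.28, 1.53, 1.91 and 0.85 and was higher by 1.39 ± 0.31 (adjusted p = 0.0177). Mpeg1, the pore-forming perforin-2 of phagocytes, had 0.95, 1.19, 1.40 and 1.70 and was higher by 1.31 ± 0.26 (adjusted p = 0.00574). The dye-swap means of these 4 genes lay above 1 in both replicates.

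The other 8 called macrophage genes lay between 0.57 and 1.24. They were the lectin receptors Clec4n (1.24) and Clec4a2 (1.01, with 1 array well above the other 3), the lysosomal protease Ctss (1.05), the innate receptor Tlr2 (0.75), the integrin chain Itgam (0.73), the Fc receptor Fcgr3 (0.71), the second lysozyme gene Lyz2 (0.58) and the costimulatory ligand Cd80 (0.57). The 2 probes of Lyz2 disagreed, with -0.15 and 1.30, and lysozyme genes may share signal. The integrin partner chain Itgb2, which is not on the list and was named after its value was seen, was also higher, by 0.63 ± 0.15 (adjusted p = 0.0223). Not every common marker passed: Adgre1, a widely used macrophage surface marker, had -0.07 ± 0.23. Without replicate 1 only 4 of the 43 members passed, and without replicate 2 only 6.

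**Figure D3:**
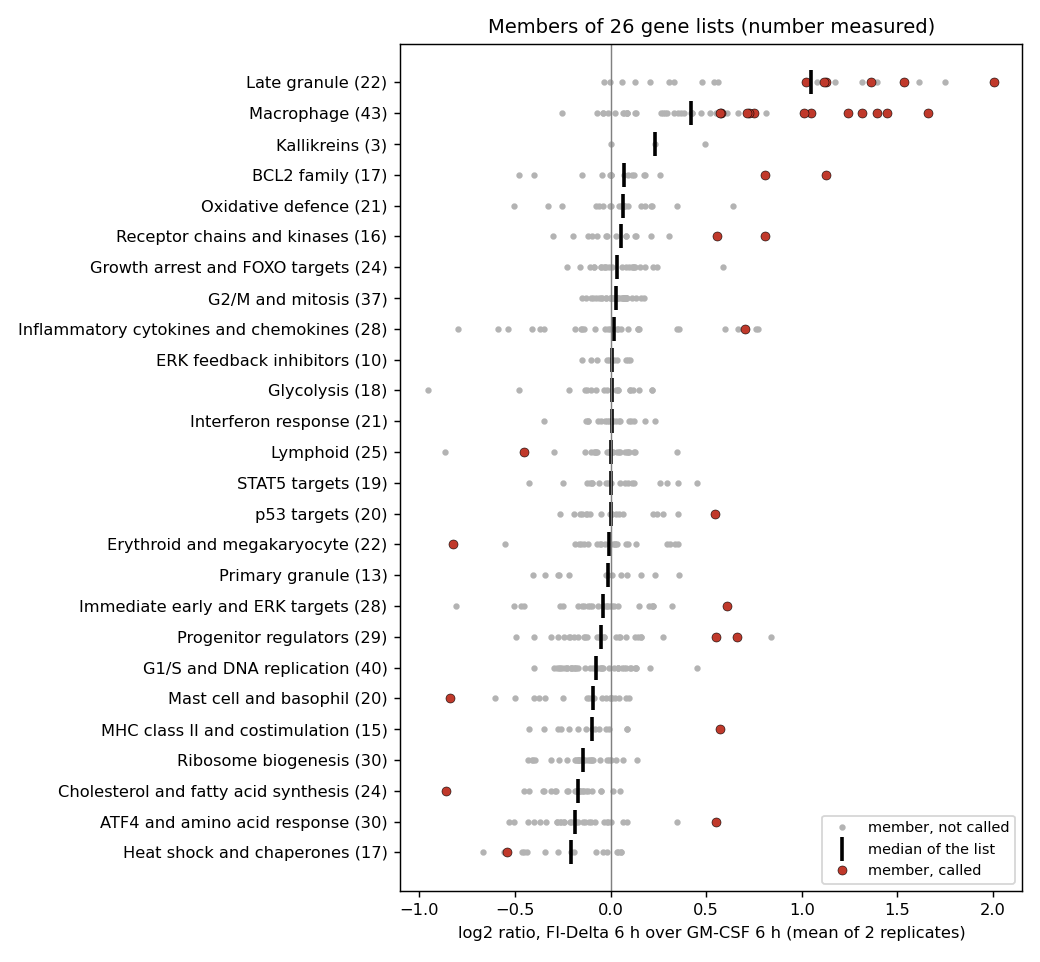
Log2 ratio of FI-Delta over GM-CSF at 6 hours (x axis, mean of 2 replicates) for each measured member of 26 gene lists, ordered by the list's median (black bar); red circles are called members and grey points members that were not called. The late granule list, with a median of 1.05, and the macrophage list, at 0.42, hold 18 called members, all above 0.

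Of 16 measured receptor chains and kinases, 2 were called higher and none lower, against 0.647% and 0.247% of all features. Csf2ra, the alpha chain of the GM-CSF receptor, had 0.94, 0.37, 0.36 and 0.55 and was higher in FI-Delta cells by 0.55 ± 0.14 (adjusted p = 0.0392). It passed neither without replicate 1 nor without replicate 2. Il3ra, the alpha chain of the IL-3 receptor, had 0.08 ± 0.07 (adjusted p = 0.894), and Csf2rb2, the beta chain that mice use for IL-3 alone, had -0.30 ± 0.22 (adjusted p = 0.814), with values from -1.18 to 0.37. Csf2rb, the endogenous common beta chain, had no probe with its symbol among those tested. Among the 16 measured receptor chains and kinases, Fgr, a Src family kinase of myeloid cells, was the other called member, at 0.81 ± 0.19 (adjusted p = 0.0206).

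None of 19 measured STAT5 targets was called (3 higher at an unadjusted p under 0.05), and their median was 0.00. Cish, a feedback inhibitor induced by Stat5, had -0.06 ± 0.16, Socs2 had -0.10 ± 0.11 and the kinase gene Pim1 had 0.12 ± 0.14. None of 10 ERK feedback inhibitors was called, with none at an unadjusted p under 0.05, and all lay between -0.15 and 0.10. As 0.894% of all features were called, neither count of 0 says much about lists this short. The phosphatase gene Dusp6 had 0.09 ± 0.33, an interval too wide to show that it was alike in the 2 cells. Among 28 immediate early and ERK targets only Phlda1, a pleckstrin homology domain protein, was called, with 0.85, 0.46, 0.37 and 0.75 and a mean of 0.61 ± 0.14 (adjusted p = 0.0174). Egr1 went apart in the replicates, with 0.33 in replicate 1 and -1.94 in replicate 2. No promoter of a STAT5 target is printed, since none was called.

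The survival genes of the Bcl2a1 cluster, which encode A1 proteins related to Bcl-2, were higher together. Bcl2a1a had 1.48, 1.20, 0.87 and 0.95 and was 2.18-fold higher (log2 1.13 ± 0.17, adjusted p = 0.000351). Bcl2a1d had 0.56, 1.04, 0.73 and 0.90 and was higher by 0.81 ± 0.15 (adjusted p = 0.00207). Bcl2a1c, named after its value was seen, was higher by 0.95 ± 0.19 (adjusted p = 0.00407). These are near-identical copies whose probes may share signal, so they are not independent. The first 2 were the called members of 17 BCL2 family genes, whose median was 0.07. For this and the next lists, 0.647% of all features were called higher. The death receptor gene Fas was the called member of 20 p53 targets, at 0.55 ± 0.11 (adjusted p = 0.00567). The chemokine Ccl6 was the called member of 28 inflammatory genes, at 0.70 ± 0.15 (adjusted p = 0.00883). Slfn1, the founding Schlafen gene, had 1.43, 0.84, 1.17 and 1.35 and was higher by 1.20 ± 0.28 (adjusted p = 0.0239).

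The remaining genes with the largest positive differences were more scattered in function. Mcemp1, a membrane protein of mast cells and other myeloid cells, had 1.85, 1.44, 0.62 and 1.19 and a mean of 1.27 ± 0.19 (adjusted p = 0.000187). Trpm2, a calcium channel opened by oxidative stress, had 1.44, 1.42, 0.93 and 0.79 and a mean of 1.14 ± 0.20 (adjusted p = 0.00153). Tifab, a relative of the TRAF6 adaptor Tifa, was far higher in replicate 1 (2.20 and 1.51) than in replicate 2 (0.47 and 0.36), with an adjusted p of 0.0356. The transcript 3110009F21Rik, for which no role is given here, had 2.01 and 1.91 in replicate 1 and 0.65 and 0.76 in replicate 2 (adjusted p = 0.00166).

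Of the 50 features called lower, 43 had a gene symbol. S100a10, the annexin A2 partner, had -2.47, -0.69, -1.09 and -0.75, a mean of -1.25 ± 0.22 (2.38-fold lower, adjusted p = 0.00145). Scd1, which makes monounsaturated fatty acids, had -1.54, -0.97, -0.35 and -0.58 with a mean of -0.86 ± 0.21 (adjusted p = 0.0373). It was the called member of 24 cholesterol and fatty acid synthesis genes, where 0.247% of all features were called lower. Of the 24, 22 lay below 0, with a median of -0.17. F2r, the thrombin receptor, was even over the arrays at -0.62, -0.89, -0.84 and -0.94, with a mean of -0.82 ± 0.20 (adjusted p = 0.028). Rab27b, a small GTPase of granule secretion, had -0.81, -1.57, -0.64 and -0.34 and a mean of -0.84 ± 0.21 (adjusted p = 0.0336). The Kelch protein gene Ivns1abp had -0.63, -0.93, -0.86 and -0.61 and a mean of -0.76 ± 0.12 (adjusted p = 0.000404). The lectin gene Clec10a (-0.60), the necroptosis kinase Ripk3 (-0.58), the lactate transporter Slc16a1 (-0.54), the folate enzyme Fpgs (-0.52) and the basal transcription factor subunit Gtf2e1 (-0.51) were also lower. Adam4, listed as the largest negative difference at -1.29, rested on 1 array at -5.08, while the other 3 lay between -0.09 and 0.00.

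Of the genes called lower, 9 act in protein entry, folding or exit at the endoplasmic reticulum. The endoplasmic reticulum folds proteins that are threaded into it through a channel: translocon proteins such as Ssr1 and Ccdc47 assist entry, signal peptidase (Spcs3) and oligosaccharyltransferase (Rpn1) process the chain, chaperones (Hspa5, Hyou1) and disulfide isomerases (Pdia5) fold it, and the COPII coat (Sec24d) carries it out. When unfolded protein builds up, the factors Atf6 and Xbp1 raise such genes through a promoter element. A list of 64 measured genes of this pathway was put together after the values had been seen, so its counts are a description with no test. Of the 64, 9 were called lower and none higher, against 0.247% and 0.647% of all features. Means lay below 0 for 58, and the median was -0.27, with -0.30 in replicate 1 and -0.23 in replicate 2.

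The element, searched as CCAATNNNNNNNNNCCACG on both strands from 250 bases before to 50 bases after the start, was in the windows of 9 of 53 measured list members with a promoter in the RefSeq table of build GRCm38.p6 (17%), against 37 of all 27025 genes there (0.137%). The list was built from genes of the response in which this element is known, so the choice of list set that excess and it says nothing about the difference at 6 hours. Of the called members, 1 of 7 with a promoter in the table held it, Hspa5, whose 250 bases before the start at chr2:34771840-34772089 (plus strand) are shown because the gene encodes the main chaperone of the compartment, with the match in capitals.
Hspa5: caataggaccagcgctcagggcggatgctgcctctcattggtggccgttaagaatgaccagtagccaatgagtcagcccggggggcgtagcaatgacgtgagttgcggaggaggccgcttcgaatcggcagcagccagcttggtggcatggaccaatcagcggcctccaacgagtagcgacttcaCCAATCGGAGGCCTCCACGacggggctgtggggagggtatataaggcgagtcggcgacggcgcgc
The other matches are shown to let the spacers be compared, read along the gene's strand, with the fixed letters of the element in capitals. A match beginning with CGTGG is the element in reverse, and Hsp90b1 holds a match in either orientation.
Pdia6, chr12:17266491-17266509: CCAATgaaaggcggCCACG
Hsp90b1, chr10:86705533-86705551: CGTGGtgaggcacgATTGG
Hsp90b1, chr10:86705638-86705656: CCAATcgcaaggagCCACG
Creld2, chr15:88819520-88819538: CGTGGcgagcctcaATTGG
Calr, chr8:84847075-84847093: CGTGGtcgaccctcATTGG
Dnajc3, chr14:118937827-118937845: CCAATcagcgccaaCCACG
Canx, chr11:50325800-50325818: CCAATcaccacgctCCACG
Syvn1, chr19:6046532-6046550: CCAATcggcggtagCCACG
Derl3, chr10:75893242-75893260: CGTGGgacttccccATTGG
A match is a description of the letters and shows neither binding nor use.

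Sec24d had -0.62, -0.48, -1.18 and -0.59 with a mean of -0.72 ± 0.10 (adjusted p = 3.68e-05). Ssr1 had -0.50, -0.82, -0.35 and -0.49, a mean of -0.54 ± 0.09 (adjusted p = 0.000695). Hspa5 had -0.30, -0.77, -0.57 and -0.53, a mean of -0.54 ± 0.13 (adjusted p = 0.0262), with its 2 probes at -0.78 and -0.30. In all 3 genes every array lay below 0. Pdia5 (-0.58), Hyou1 (-0.49), Spcs3 (-0.46), Ccdc47 (-0.41), Selenos (-0.40) and Rpn1 (-0.36) were the other called members, with adjusted p from 0.0105 to 0.0473. Of the 9 list members found to hold the element, Hspa5 alone was called. Pdia6 had -0.67 ± 0.18 (adjusted p = 0.0675) and Hsp90b1 -0.56 ± 0.17 (adjusted p = 0.144). Derl3, which also holds it, had 0.23 with an adjusted p of 0.327. In cells still in IL-3 the median of the list was -0.10. Some members were lower there in replicate 1 alone, such as Pdia6 (-0.76, against 0.07 in replicate 2) and Sec61a1 (-0.43 against 0.15). Others were lower in both, such as Hspa5 (-0.17 and -0.21) and Sec24d (-0.28 and -0.15). Without replicate 1 only 1 member passed, and without replicate 2 only 3.

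**Figure D4:**
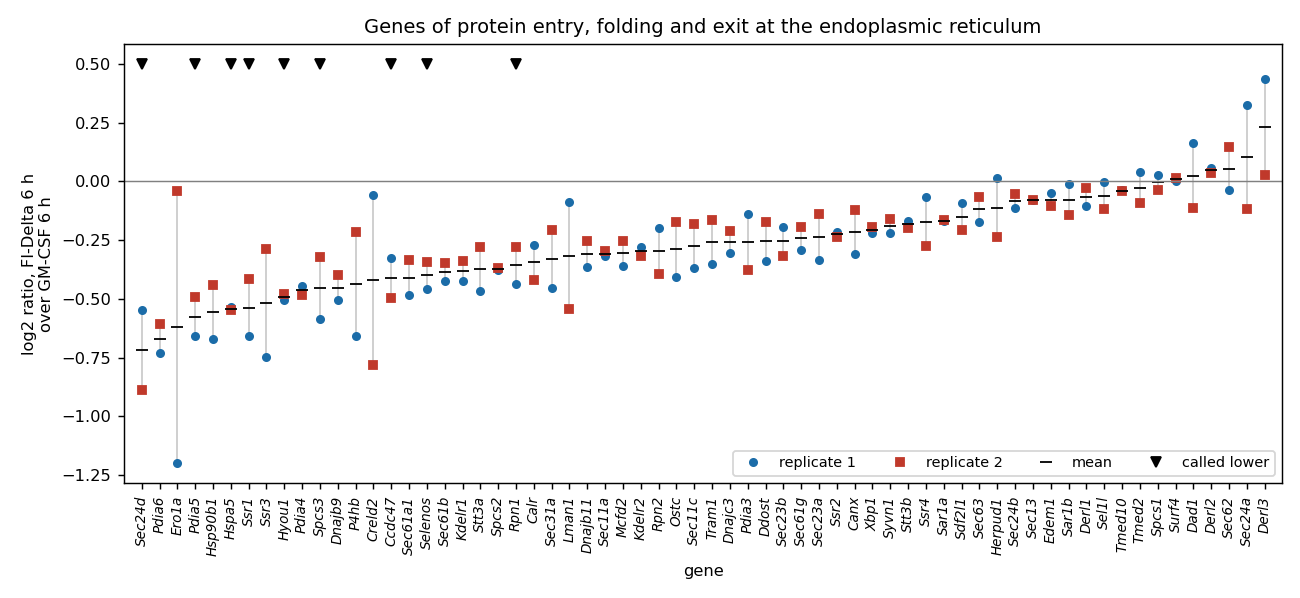
Log2 ratio of FI-Delta over GM-CSF at 6 hours (y axis) for 64 genes of protein entry, folding and exit at the endoplasmic reticulum (x axis, ordered by their mean); blue circles are replicate 1, red squares replicate 2, black bars the mean, and triangles the 9 members called lower. Of the 64 means, 58 lie below 0.

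Heat shock and chaperone genes, a list that shares members with the last one, held 1 called member of 17 (Hspa5, lower) and had a median of -0.21. ATF4 and amino acid response genes had a median of -0.18, which was -0.38 in replicate 1 and 0.02 in replicate 2. Its 1 called member of 30, Cebpb, was higher. The serine synthesis enzyme Psat1 had -0.53 ± 0.14 (adjusted p = 0.0557). Ribosome biogenesis genes had a median of -0.15 with 0 of 30 called and 7 lower at an unadjusted p under 0.05. G1/S genes had a median of -0.07 with 0 of 40 called (6 at an unadjusted p under 0.05), and G2/M genes a median of 0.03 with 0 of 37 called and none at an unadjusted p under 0.05. Glycolysis (18 genes), growth arrest and FOXO targets (24), interferon response (21), oxidative defence (21) and kallikreins (3) also held no called member, with 2, 2, 0, 3 and 2 members at an unadjusted p under 0.05. Since 0.894% of all features were called, these counts of 0 say little about the lists.

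Marker lists of other blood lineages held 1 called gene each, where 0.894% of all features were called. Mast cell and basophil genes had a median of -0.09 with 1 of 20 called, Rab27b. The mast cell protease gene Cpa3 had -0.50 ± 0.28 (adjusted p = 0.652) and the mast cell receptor gene Kit 0.08. Erythroid and megakaryocyte genes had a median of -0.01 with 1 of 22 called, F2r, and the platelet integrin chain Itga2b had -0.55 ± 0.22 (adjusted p = 0.34). Lymphoid genes had a median of 0.00 with 1 of 25 called, Thy1, whose 2 probes disagreed at -0.90 and -0.01. MHC class II and costimulation genes had a median of -0.09 and 1 of 15 called, Cd80, which is also among the called macrophage genes.

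Arrays of the same 2 lines before IL-3 was washed out, which share no RNA with those at 6 hours, asked how much of the difference was already present in IL-3. The 108 named genes called higher at 6 hours had a median of 0.66 at 6 hours and 0.31 at 0 hours, and 19 of them were also called higher at 0 hours, where 0.548% of all features were called. The 43 called lower had medians of -0.45 and -0.09, and 1 of them, Ola1, named here after its value was seen, was called lower at 0 hours. These genes were chosen on their values at 6 hours, and the medians were not tested against each other. Mmp8 had 1.31 at 0 hours, Bcl2a1a 0.90 and Cebpb 0.52, and all 3 were called there. Genes called at both times also included some that were larger at 0 than at 6 hours. Clec4n had 1.47 at 0 and 1.24 at 6 hours, Bcl2a1d 1.08 and 0.81, Ccl6 0.77 and 0.70, and Phlda1 0.65 and 0.61. Lyz1 at 0.65, Wfdc21 at 0.53 and Lcn2 at 0.37 were not called at 0 hours.

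The difference between 6 and 0 hours was itself tested. It passed for 2 features (0.00988% of all), both lower at 6 hours, and for none of the genes named above, with 813 features at an unadjusted p under 0.05. The called gene with a symbol was Urod, a haem synthesis enzyme, with a difference of -1.13 ± 0.20 (adjusted p = 0.0464). Its ratio at 6 hours was -0.23 and -0.21 in the 2 replicates, and at 0 hours 1.56 and 0.26, so the difference rested mostly on replicate 1 at 0 hours. For F2r the change was -1.08 (adjusted p = 0.258), with -0.82 at 6 hours and 0.26 at 0 hours. Neither Mmp8 (0.69) nor Lyz1 (1.00) passed, with adjusted p of 1.00 and 0.998. On simulated data with known changes this test found 41% of differences of 0.5 and 91% of differences of 1. The spread of these arrays may differ from the simulated one, so the shares may not hold here.

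The change within each line was measured on other arrays, which share the 6-hour RNAs with the comparison and are set beside it with no test of likeness. The genes were chosen on ratios of those RNAs, so an error in a shared RNA would carry over and raise the overlap. The 108 genes called higher had a median of 0.15 for FI-Delta at 6 hours over FI-Delta at 0 hours and 0.00 for GM-CSF at 6 hours over parental cells at 0 hours. In FI-Delta cells 15 of them were called, all higher at 6 hours (1.51% of all features were called there in either direction). Among them were the kinase Ikbke at 0.79 and the TNF receptor Tnfrsf1b at 0.87, both named after their values were seen. In GM-CSF cells 2 of the 108 were called higher and 1 lower (1.42% of all features). For Lyz1 the ratios were 0.16 in FI-Delta cells and -0.75 in GM-CSF cells, for Wfdc21 0.02 and -0.56, and for Lcn2 0.43 and -0.58, none of which passed. In FI-Delta cells the replicates had opposite signs for Wfdc21 (0.55 and -0.50) and Lcn2 (0.93 and -0.07), and one sign for Lyz1 (0.07 and 0.25). F2r fell by 0.82 in FI-Delta cells (adjusted p = 0.0219) and had -0.01 in GM-CSF cells, the mean of -0.33 and 0.30 in the replicates. The 64 endoplasmic reticulum genes had a median of -0.04 in FI-Delta cells, with 3 called lower and none higher. In GM-CSF cells their median was 0.01, with 1 called lower and none higher. That median averages replicates of opposite sign for some members, such as Hsp90b1 (-0.41 and 0.47) and Pdia6 (-0.35 and 0.45). Other members kept one sign, such as Ssr1 (0.17 and 0.18) and Stt3a (-0.49 and -0.16). Hyou1 (-0.42) and Rpn1 (-0.33) were called lower in FI-Delta cells and had 0.07 and -0.02 in GM-CSF cells, and the difference between the lines was not tested. Xbp1 fell in both, with -0.77 in FI-Delta cells and -0.62 in GM-CSF cells. Hspa5 (0.06), Ssr1 (-0.06), Pdia5 (-0.07) and Sec24d (-0.21) did not pass in FI-Delta cells.

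V449E, another activated mutant of the beta chain, is altered in the part that crosses the membrane, and its cells were also left without factor. FI-Delta over V449E at 6 hours was measured on arrays that share the FI-Delta RNA. Of the 108 genes called higher, 19 were called higher and 4 lower in FI-Delta over V449E (1.3% of all features were called there in either direction). Because the 108 were chosen on the same FI-Delta RNA, an error in it would raise the count called higher. Wfdc21 had 2.22, Lcn2 1.78, Bcl2a1a 1.33 and Mmp8 1.20, each called higher, and 3110009F21Rik had -1.14, called lower. Lyz1 had 0.32, Mpeg1 0.18 and Hp 0.13, none of them called. The macrophage list had a median of 0.08 in FI-Delta over V449E, and the late granule list 0.97. S100a10 had -2.57 and was called lower.

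At 12 hours 41 of the 108 genes called higher were called higher again (0.761% of all features were called there), and at 72 hours 13 were (1.31%). The difference between 6 and 12 hours passed for no feature in limma, with 500 at an unadjusted p under 0.05. That between 6 and 72 hours passed for 2, both higher at 6 hours, with 1053 at an unadjusted p under 0.05. Hp had 1.13 at 6 hours and 0.13 at 72 hours, a difference of 1.00 ± 0.19 (adjusted p = 0.049). Mapk10, a JNK kinase, had 0.21 and -0.70, a difference of 0.91 ± 0.16 (adjusted p = 0.0252), and at 72 hours its replicates were -0.21 and -1.19. S100a10 lay below 0 at all 6 times, between -0.56 and -1.35. Marco lay above 0 at all 6 times.

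**Figure D5:**
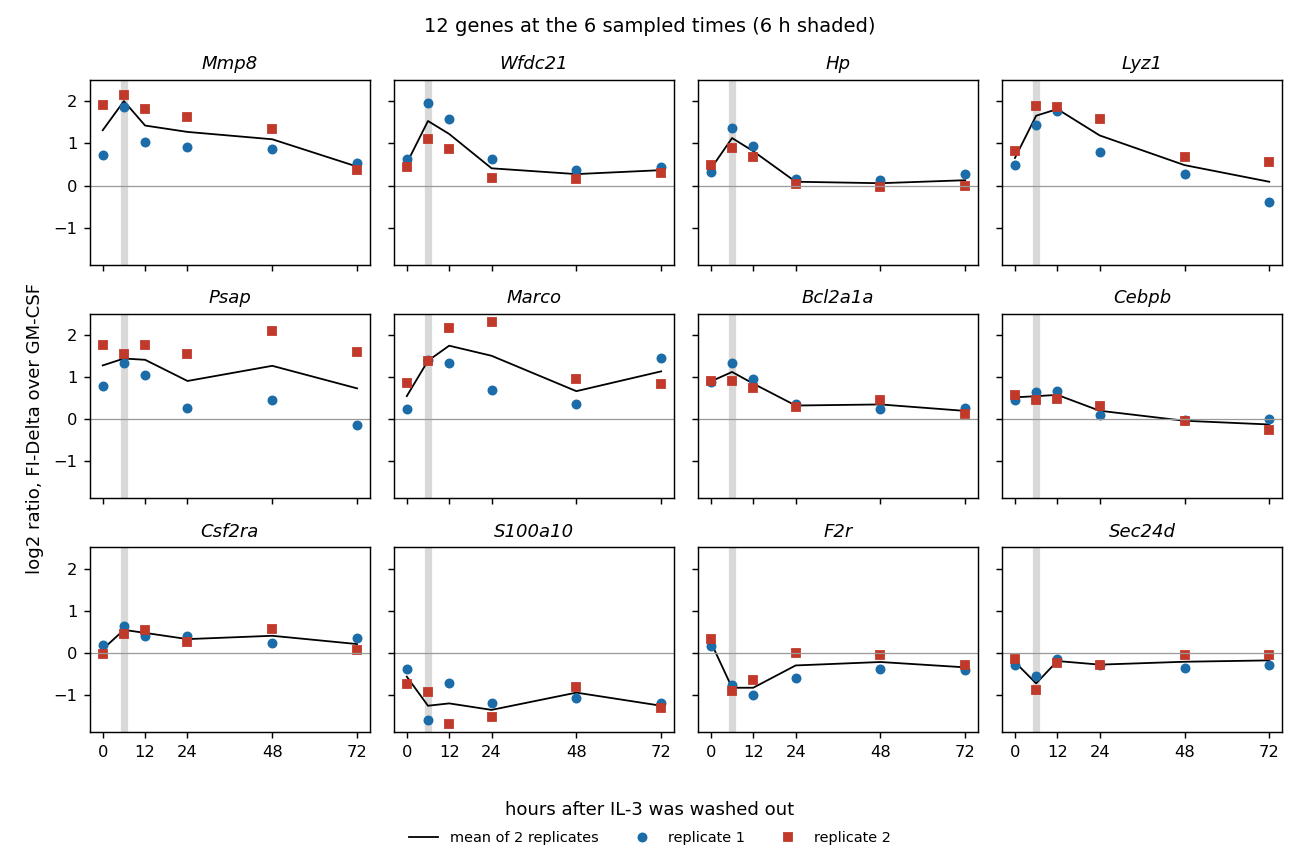
Log2 ratio of FI-Delta over GM-CSF (y axis) at the 6 sampled times from 0 to 72 hours after the IL-3 wash (x axis) for 12 genes; blue circles are replicate 1, red squares replicate 2 and the line their mean. Mmp8, Wfdc21 and Hp are highest at 6 hours, at 2.01, 1.53 and 1.13, and Sec24d is lowest there, at -0.72.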

How the data were processed

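RNA was measured on 116 spotted 2-colour arrays, 58 dye-swap pairs over 28 comparisons. The deposited table holds 1 value per probe and array, read here as log2 ratios normalised by the authors. Per the submitters' processing notes limma was used, with no version. Background correction, normalisation method and log base are not given in the sources used here. The precision is limited by the number of arrays, as intensities were not used here.

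After removal of 1243 control probes from 23040, tests covered 21797. Of these, 16651 had 1 gene symbol, 137 several and 5009 none, and 15973 were matched to RefSeq by Entrez identifier. Probes of a symbol were averaged, giving 20243 features. Signs were turned to FI-Delta over GM-CSF and dye swaps averaged. Tests used limma 3.58.1 (lmFit and eBayes, R 4.3.3), 2-sided, with 1 mean per comparison over all 58 pairs. The pairs share 1 estimate of the spread (30 residual and 5.98 prior degrees of freedom). They use 36 RNAs again and again, so they are not independent, and the p-values may be too small. A fit on the 36 RNA levels with a replicate block called 104 features, 86 of them among the 181 called here. The median SE at 6 hours was 0.09. Array medians lay within 0.01 of 0. Every array holds RNAs of 1 replicate number, so each ratio is already paired by number. On simulated data (200 changed of 20243 features) 76% of the changes of size 0.5 and 98% of those of size 1 were recovered by the 6-hour fit, and 3.87% of its calls were false. The spread of simulated data need not match these arrays, where 16 of the 181 calls had 1 array far from the others. These rates therefore do not give the share of false calls here.

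The comparison, the 26 gene lists and the named genes were chosen with earlier results of these data known. Named were the 15 largest called differences in each direction with the same sign on 4 arrays, the receptor chains, up to 4 called members of each list and up to 5 genes of each difference between times. Other called genes outside the lists were named after their values were seen. Alternatives were the 36 fitted RNA levels, other estimates of spread, a single dye order, scaled arrays, single probes, symbols only, robust eBayes and leaving out each replicate. Promoter sequences are RefSeq's, build GRCm38.p6, and figures were drawn with matplotlib.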

Additional observations from a re-analysis of the deposited data

Results flagged for a closer look

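Among 78 named genes examined, 2 had 1 of their 4 arrays far from the other 3. The cut-off would mark about 1 in 20 sets of 4 independent normal values, a larger share than was marked here. The 4 arrays are dye-swap pairs of 2 replicates, so that rate need not hold for them. Adam4 had -5.08 on the array of replicate 1 with FI-Delta in Cy3 and between -0.09 and 0.00 on the others, so the gap took 0.982 of the range. Clec4a2 had 1.81 on the array of replicate 1 with FI-Delta in Cy5 and 0.69 to 0.77 on the others, a gap of 0.922 of the range. Over all 181 called features, 16 had such an array, 13 of them called higher and 3 lower.

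Differences between times passed the test for 3 named genes. Urod was lower at 6 than at 0 hours, with a difference of -1.13 on the log2 scale. Hp was higher at 6 than at 72 hours by 1.00, and Mapk10 by 0.91.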

How the results depend on the processing

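Against 181 features called at 6 hours (131 higher in FI-Delta cells, 50 lower), 104 were called with 36 fitted RNA levels and a replicate block (90 higher, 14 lower), 86 of them shared. The 12 FI-Delta against GM-CSF pairs alone gave 30 (26 higher, 4 lower), and the same pairs with a replicate block 117 (95 higher, 22 lower). Scaled and centred arrays gave 280 (177 higher, 103 lower). Leaving out a replicate gave 99 to 275. The difference between 6 and 0 hours, 2 features, passed for 0 with 36 fitted levels and a replicate block, 7 with scaled arrays, and 35 to 50 with a replicate left out. The difference between 6 and 72 hours, 2 features, passed for 1 with 36 fitted levels and a replicate block. Over all list genes, 32 were called; 10 were with the 12 pairs alone (9 of the 32), 16 with FI-Delta in Cy3 alone (14 of the 32), 8 without replicate 1 (6 of the 32) and 31 without replicate 2 (17 of the 32). The cause of these changes was not tested.

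Of 40 named genes called at 6 hours, Mmp8, Hp, Ivns1abp and Sec24d were called under all 10 alternatives run for single genes. Without replicate 1, 32 lost their call, and without replicate 2, 18. No named gene that was called changed sign in these alternatives. With 2 replicates, a call that is lost when 1 is left out rests on fewer arrays.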

Other observations

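Genes outside the lists, chosen after their values were seen, were also called, and no list was fixed or counted for their families. The Schlafen genes Slfn2 and Slfn3 were higher in FI-Delta cells beside Slfn1, by 0.65 ± 0.15 and 0.81 ± 0.13 (adjusted p = 0.0262 and 0.00038 in limma). Of other single genes called higher, the metal transporter Slc11a1 had 1.11 ± 0.20, the lysosomal trafficking regulator Lyst 0.78 ± 0.15, the Toll-like receptor chaperone Unc93b1 0.56 ± 0.11 and the proton pump subunit Atp6v1e1 0.49 ± 0.10. The cholesterol exporter Abca1 had 0.78 ± 0.13. Cdkn2a, which encodes the cell cycle inhibitors p16 and p19, had 1.00, 0.95, 1.31 and 0.93 on the 4 arrays and was higher by 1.05 ± 0.23 (adjusted p = 0.0123). Its ratio was 0.63 at 0 hours and 0.80 at 72 hours.

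A further 4 transcripts were higher in FI-Delta than in GM-CSF cells and lower in FI-Delta than in V449E cells at 6 hours, each called in both. They were 3110009F21Rik (1.34 and -1.14), Tmem141 (1.04 and -1.04), the vacuolar sorting gene Vps11 (0.94 and -0.67) and the mannose 6-phosphate receptor gene Igf2r (0.78 and -0.78). Their ratios to parental cells in IL-3 at 0 hours were 0.62, 1.18, 0.51 and 0.70.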
